A study of Homo sapiens with 18 samples.

Results

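Myeloid granule and secreted proteins are the antimicrobial and inflammatory cargo of neutrophils, eosinophils and monocytes, and 10 of their genes were examined in the chromatin of the MOLM-13 leukemia line. These were MPO, ELANE, AZU1, PRTN3, CTSG, RNASE2, RNASE3, LYZ, S100A8 and S100A9, which are 10 of the 20020 protein-coding genes in GENCODE release 44. They were taken by name, from a list drawn up with earlier results of these data known. Each was read from the intervals that overlapped 2 kb either side of any of its annotated transcription start sites (TSS) on hg38. Per gene and histone mark, the interval with the highest mean count over the 4 libraries was taken as the promoter interval, and intervals outside these windows but within 20 kb of a TSS were described as distal.

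MOLM-13 is an established acute myeloid leukemia cell line with a rearranged KMT2A gene, and the study asked whether an immunoproteasome inhibitor alters histone marks in it. Cut&Tag was used, in which an antibody against a mark guides a transposase that tags the DNA beside it for sequencing. Cells received 100 nM PR-957 (ONX-0914) or its diluent DMSO, for 72 h per the labels, although a legend of the study gives a shorter time. H3K4me3, H3K27ac, H3K4me1 and H3K27me3 were each profiled in 2 DMSO and 2 PR-957 libraries, 16 of the 18 samples, and the 2 IgG samples were not analysed here. No label says that the libraries of a group came from separate cultures, so p-values measure the spread between these libraries, which may be technical. With 2 libraries against 2, an exact two-sided permutation test cannot go below p = 0.333, and calls therefore rest on a model that pools the spread over all intervals of a mark. For H3K4me3, H3K27ac and H3K4me1 this pooling was complete. Standard errors, confidence intervals and p-values from edgeR there do not reflect the spread of the single interval. In bulk chromatin, fewer cells carrying a mark and less of the mark per cell cannot be told apart.

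The azurophil granule is filled early in neutrophil development with myeloperoxidase and a family of serine proteases, while the secretory ribonucleases are best known from eosinophil granules. Lysozyme is made by granulocytes and monocytes alike, and the S100A8 and S100A9 proteins form the calcium-binding complex calprotectin, which is abundant in the cytosol of mature neutrophils and monocytes. H3K4me3 marks active promoters, H3K27ac active promoters and enhancers, H3K4me1 enhancers and promoter flanks, and H3K27me3 is laid down by Polycomb at silent genes, but none of the marks measures transcription.

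Library depth, the total count over the listed intervals, differed most for H3K4me3 and H3K4me1. The H3K4me3 libraries held 44591150 and 42037643 counts with DMSO and 30070119 and 30454212 with PR-957. For H3K27ac the totals were 13235793 and 9984719 with DMSO and 9885836 and 14165777 with PR-957. The H3K4me1 totals were 30584219 and 23874111 with DMSO against 15204186 and 22790073 with PR-957. The H3K27me3 libraries, at 10032503 and 11976443 with DMSO and 10380816 and 12047958 with PR-957, were the shallowest over their intervals together with H3K27ac. Many intervals overlap: 97.8% of the H3K4me3 intervals, 83.0% of the H3K27ac, 91.5% of the H3K4me1 and 80.0% of the H3K27me3 intervals overlapped another of the same mark, so a count of intervals is not a count of loci and the totals include some reads more than 1 time. Even counts made up 58.5% to 70.8% of the values in a library, so the counts are not taken here as numbers of independent fragments. For each of the 4 marks this share was higher in both PR-957 libraries than in both DMSO libraries, with 68.6% and 69.5% against 59.0% and 58.5% for H3K27me3. If both ends of a fragment were counted, which the sources used here do not say, the counting error is understated, and the part of this in the comparisons was not tested.

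The label was checked against cell type markers by counting those with an interval in the 2 kb window and by their summed DMSO signal, as depth-normalised counts (CPM) per kb of interval. Of 8 myeloid markers, 6 had an H3K4me3 interval, 6 an H3K27ac interval and 7 an H3K4me1 interval, with sums of 23.8, 22.2 and 18.9 CPM per kb, and none of the 8 had an H3K27me3 interval. SPI1 was the highest in H3K4me3 and H3K27ac and CSF1R in H3K4me1, while PTPRC had no interval in any of the 4 marks. LYZ and MPO belong to this marker list themselves. Of 5 erythroid markers, 1 had H3K4me3 (KLF1, 0.417 CPM per kb), 0 had H3K27ac, 1 had H3K4me1 and 2 had H3K27me3, which was highest over HBA1 (23.9 CPM per kb summed). Megakaryocyte markers were covered in 1 of 4 cases for H3K4me3 (ITGA2B, 1.45 CPM per kb) and 0 of 4 for H3K27ac. For H3K4me1 it was 1 of 4 (ITGA2B, 1.02 CPM per kb) and for H3K27me3 1 of 4 (0.326 CPM per kb). T cell markers had H3K4me3 in 2 of 4 cases, summing to 6.24 CPM per kb with CD4 the highest, H3K27ac in 1 of 4 (3.98 CPM per kb), H3K4me1 in 3 of 4 (4.06 CPM per kb) and H3K27me3 in 1 of 4 (CD8A, 3.02 CPM per kb). B cell markers had H3K4me3 in 2 of 4 cases (6.49 CPM per kb), H3K27ac in 3 of 4 (8.0 CPM per kb, highest CD79A) and H3K4me1 in 3 of 4 (6.94 CPM per kb), and H3K27me3 at PAX5 with 10.2 CPM per kb. Epithelial markers had H3K4me3 in 3 of 4 cases at a summed 2.40 CPM per kb, H3K27ac in 1 of 4 (3.30 CPM per kb), H3K4me1 in 2 of 4 (6.07 CPM per kb) and H3K27me3 in 3 of 4 (3.23 CPM per kb). KRT8 and KRT18 had the same values, 0.872 CPM per kb for H3K4me3 and 1.03 for H3K27me3. A shared interval may therefore enter these epithelial sums for each gene. The myeloid sums run over more markers than those of the other lists, and the active marks were not limited to myeloid markers.

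The 10 genes fell into 4 chromatin patterns. CTSG, RNASE2, RNASE3 and LYZ carried H3K4me3, H3K27ac and H3K4me1 intervals at the promoter, as did 6198 protein-coding genes (31.0%). MPO carried H3K27ac and H3K4me1 without H3K4me3, a combination found at 233 genes (1.16%). S100A8 and S100A9 carried H3K4me1 alone, as did 369 genes (1.84%). ELANE, AZU1 and PRTN3, which lie side by side on chromosome 19, had no interval of any of the 4 marks, as did 4763 genes (23.8%). Thus 4 of the 10 had H3K4me3 against 63.9% of protein-coding genes, 5 had H3K27ac against 60.4%, 7 had H3K4me1 against 43.5%, and 0 had H3K27me3 against 19.9%. A missing interval says that none was listed there, not that the mark was absent.

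**Figure D1:**
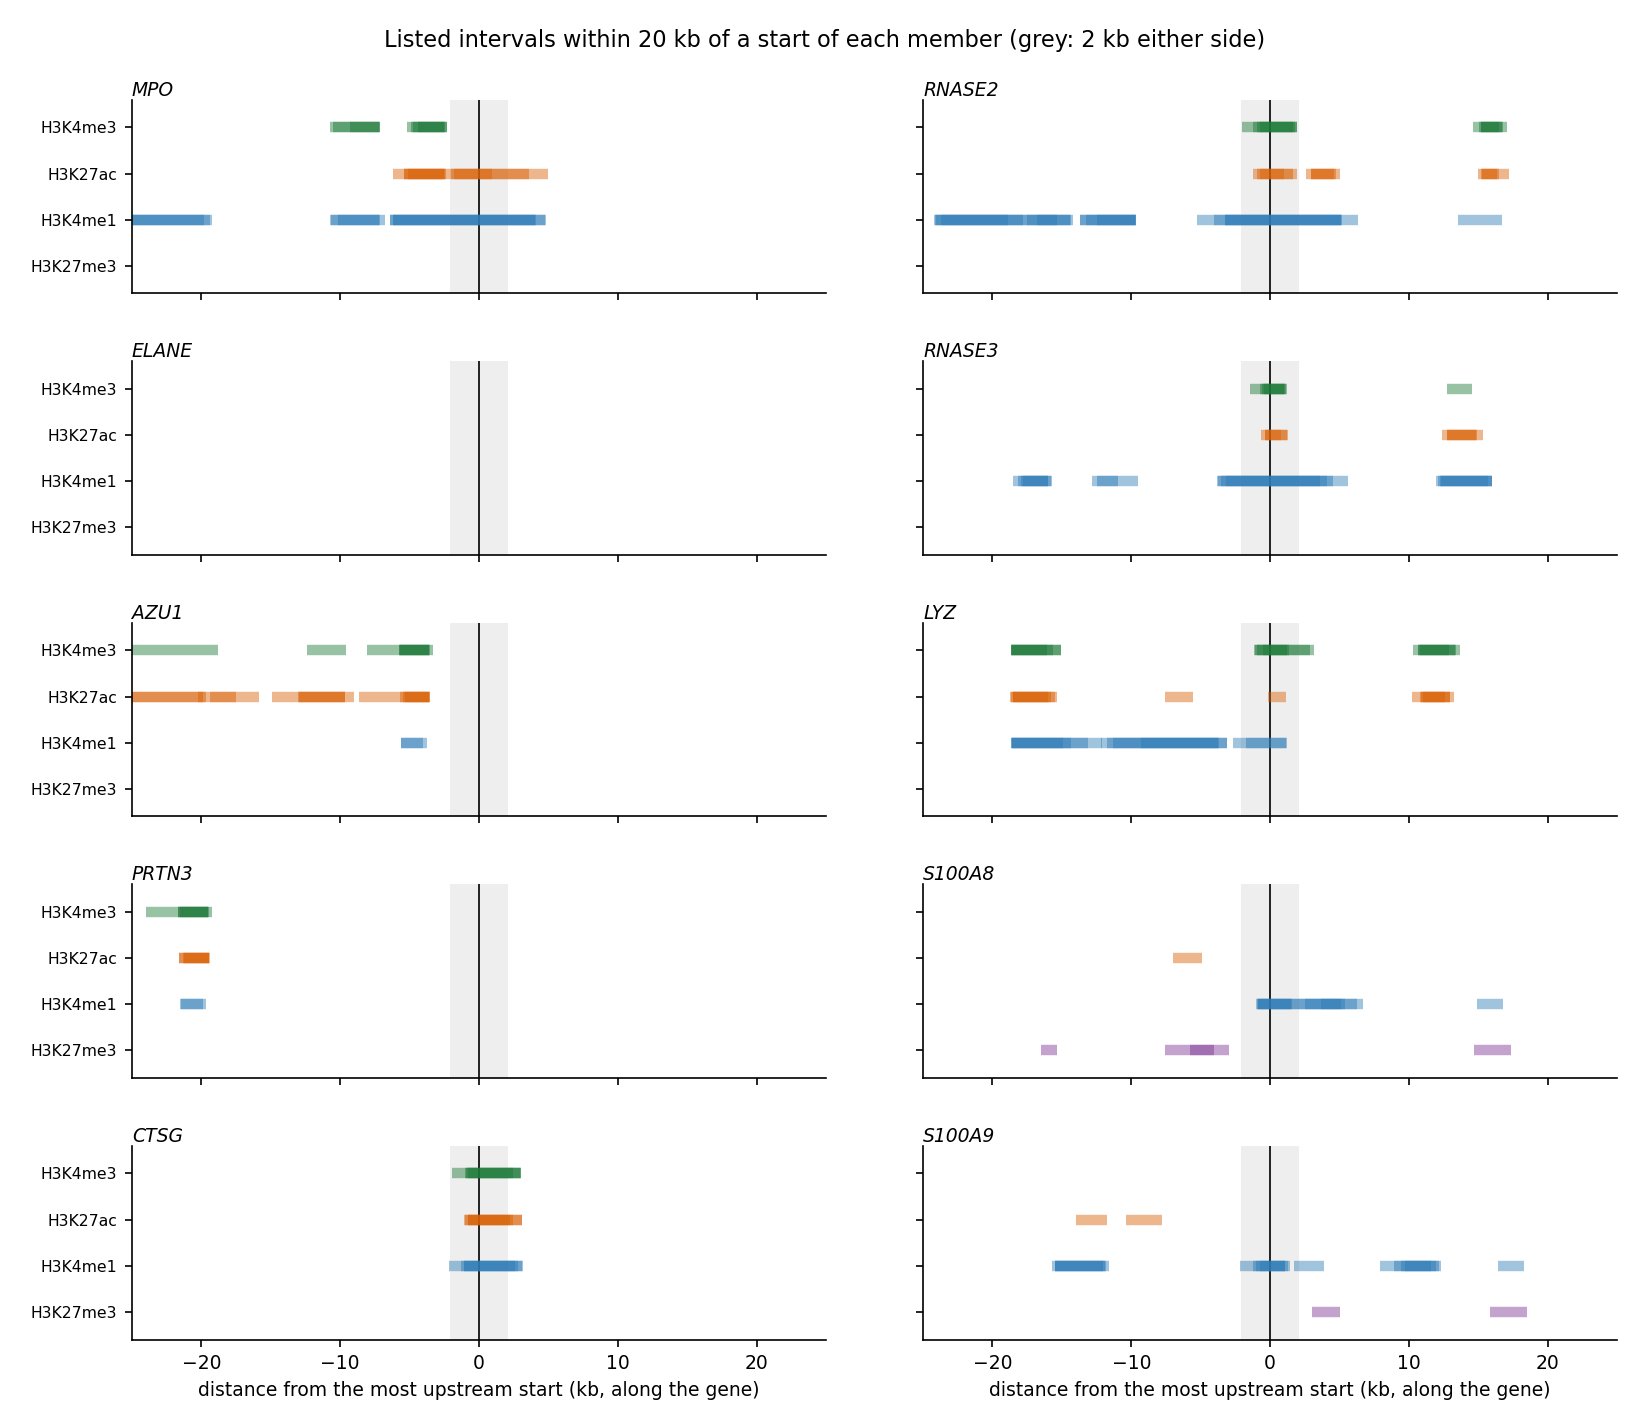
Listed intervals around the most upstream start site of each of the 10 genes, 1 row per mark, with distance along the gene in kb on the horizontal axis, limited to 25 kb either side. Bars are intervals and are darker where several overlap; CTSG, RNASE2, RNASE3 and LYZ show H3K4me3, H3K27ac and H3K4me1 over the start, while ELANE, AZU1 and PRTN3 show none within 2 kb.

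Promoter bases are shown for CTSG, RNASE2 and RNASE3, the genes with H3K4me3, H3K27ac and H3K4me1 intervals that also had an entry in the RefSeq promoter table. In that table (GRCh38.p14, 250 bases before to 50 after each start) 7 of the 10 genes were found, with 9 starts, and MPO, ELANE and LYZ were not listed. The 250 bases before the start are given 5′ to 3′ on the gene's strand, at chr14:24576251-24576500 (minus strand) for CTSG, chr14:20955237-20955486 (plus strand) for RNASE2 and chr14:20891135-20891384 (plus strand) for RNASE3, all within the H3K4me3 interval of that gene. Capitals mark matches, on either strand, to the letters of PU.1 (GAGGAA), C/EBP (TTNNGCAA), RUNX (TGTGGT), MYB (AACNG) and the TATA box (TATAAA).
CTSG: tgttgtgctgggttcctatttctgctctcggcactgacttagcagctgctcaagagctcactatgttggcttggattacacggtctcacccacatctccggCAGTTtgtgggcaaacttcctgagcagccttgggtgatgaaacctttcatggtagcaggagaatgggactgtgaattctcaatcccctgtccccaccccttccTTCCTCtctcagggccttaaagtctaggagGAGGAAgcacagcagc
RNASE2: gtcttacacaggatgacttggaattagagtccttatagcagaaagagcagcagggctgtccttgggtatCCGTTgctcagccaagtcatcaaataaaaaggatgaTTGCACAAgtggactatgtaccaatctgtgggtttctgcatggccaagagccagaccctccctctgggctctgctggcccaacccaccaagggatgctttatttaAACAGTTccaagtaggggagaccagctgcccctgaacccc
RNASE3: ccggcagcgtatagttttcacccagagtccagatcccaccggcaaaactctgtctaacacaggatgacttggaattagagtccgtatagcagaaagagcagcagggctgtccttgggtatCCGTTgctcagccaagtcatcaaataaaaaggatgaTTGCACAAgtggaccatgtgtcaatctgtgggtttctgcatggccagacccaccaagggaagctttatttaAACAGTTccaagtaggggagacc
CTSG held 2 PU.1 matches, beginning at -46 on the reverse strand and at -16, and RNASE2 and RNASE3 each held 1 C/EBP match on the reverse strand, at -145 and -94. The run AACAGTT in RNASE2 and RNASE3 is a pair of overlapping MYB matches on opposite strands. Over all 35116 promoters of the table, the share with a match was 27.9% for PU.1, 10.5% for C/EBP, 13.1% for RUNX, 77.2% for MYB and 11.5% for the TATA box. In the full windows, PRTN3 held 1 PU.1 and 1 C/EBP match, AZU1 held 1 C/EBP match, and S100A9 held 1 PU.1, 1 RUNX and 1 TATA match. S100A8 has 3 starts in the table, of which 2 held a PU.1 match and 2 a TATA match. A match describes letters and is not a binding site. RNASE2 and RNASE3 were identical at 69.2% of aligned columns (243 of 351), against 47.8% to 54.7% for every other pair among the 7 genes, highest for AZU1 and PRTN3. These shares are over the full windows and count gap columns. The windows of RNASE2 and RNASE3 are offset, so 69.2% is lower than over their shared stretch alone. Their C/EBP matches, at -145 and -94, lie in the same run of bases. Because these ribonuclease genes are close copies and no source used here says how reads that map to both were handled, their separate counts are uncertain.

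PR-957 was compared with DMSO to ask whether the drug moved any mark at these genes, using edgeR's quasi-likelihood test with Benjamini-Hochberg adjustment over all intervals of a mark and a threshold of 0.05. No promoter interval of the 10 genes passed it. For H3K4me3, 0 of 4 were called (0.226% of all intervals were), 1 of 4 had an unadjusted p under 0.05 (7.52% of all intervals), and DESeq2 called 0 of 4. In LYZ both PR-957 libraries lay above both DMSO libraries (1 of 4, against 18.1% of all intervals), and in 0 of 4 genes did both lie below (18.4% of all intervals). For H3K27ac, 0 of 5 were called (0.238% of all intervals) and 2 had an unadjusted p under 0.05 (8.01% of all intervals). DESeq2 called 0 but gave no adjusted p for any of the 5, nor for 70784 of all 74510 intervals. Its 0 therefore says little about these genes. Both PR-957 libraries lay below both DMSO libraries in MPO, CTSG and RNASE3 (3 of 5, against 18.8%) and above in 0 of 5 (18.1%). For H3K4me1, 0 of 7 were called (1.94% of all intervals), 2 had an unadjusted p under 0.05 (16.2% of all intervals), and DESeq2 called 0 of 7. RNASE2 and RNASE3 had both PR-957 libraries below (2 of 7, against 23.2%), and 0 of 7 had both above (23.5%). For H3K27me3 there was no promoter interval to test, so 0 of 0 stood beside 5.92% of all intervals called, 22.5% with both PR-957 libraries below and 21.6% with both above. The median log2 fold change of PR-957 over DMSO was 0.11 for the 4 H3K4me3 intervals, -0.16 for the 5 H3K27ac intervals and -0.13 for the 7 H3K4me1 intervals, against -0.00, 0.00 and -0.00 over all intervals of those marks.

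**Figure D2:**
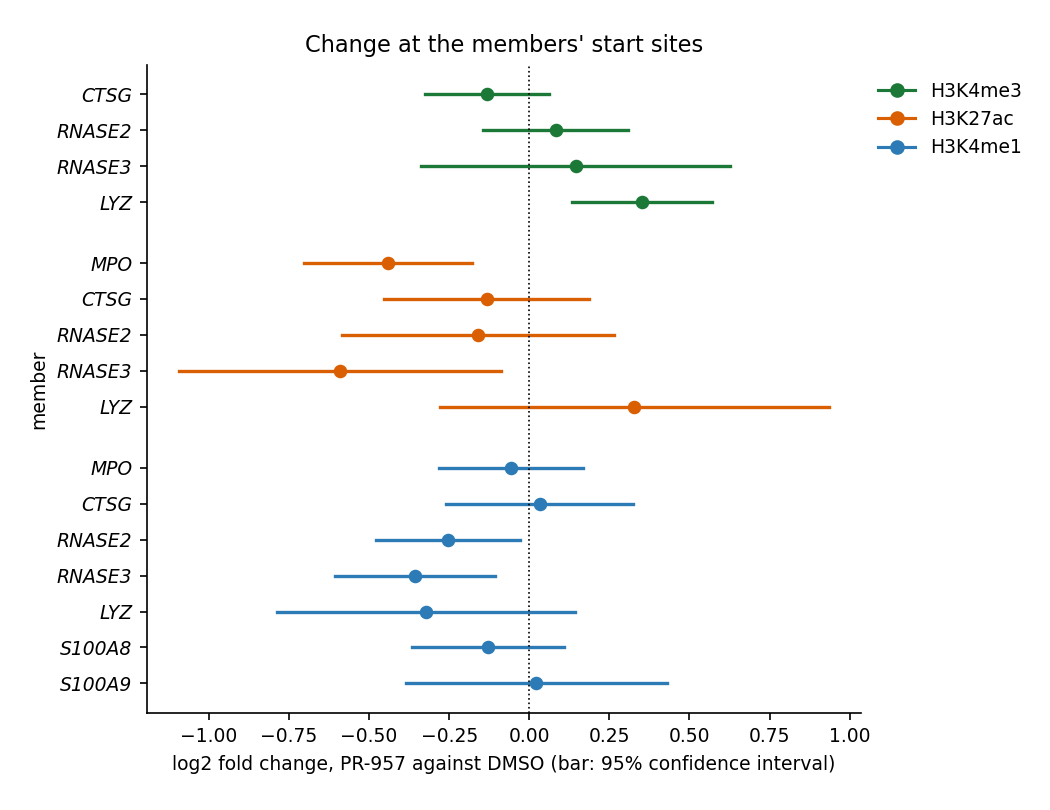
Log2 fold change of PR-957 over DMSO at the promoter interval of each gene, by mark, with 95% confidence intervals from edgeR. LYZ H3K4me3 lies above 0, and MPO H3K27ac, RNASE3 H3K27ac, RNASE3 H3K4me1 and RNASE2 H3K4me1 lie below 0 with their intervals, but none of the 16 passed the adjusted threshold.

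Myeloperoxidase, encoded by MPO, is an azurophil granule enzyme that makes hypochlorous acid. Its H3K27ac interval, chr17:58275942-58286016, spanned the upstream start sites of the gene, which has 7 annotated in all. It held 327 and 254 counts with DMSO and 170 and 280 with PR-957, which is 24.7 and 25.6 CPM (scaled by TMM) against 17.1 and 19.7. Both PR-957 libraries were low and the groups did not overlap, with means of 25.2 ± 0.608 and 18.4 ± 1.84 CPM (SD, n = 2). The log2 fold change was -0.44 (SE 0.134, 95% confidence interval -0.70 to -0.18), a fold of 0.737, and it missed the threshold with an adjusted p of 0.163 in edgeR. Leaving out 1 library at a time gave -0.56 to -0.35, and the 3 overlapping H3K27ac intervals in the MPO windows gave -0.78 to -0.42. The H3K4me1 interval, chr17:58276105-58287361, held 1303, 895, 572 and 956 counts in DMSO 1, DMSO 2, PR-957 1 and PR-957 2, or 44.1, 37.4, 36.7 and 41.6 CPM. Here the groups overlapped, with DMSO 1 the highest library and PR-957 1 the lowest. The log2 difference of -0.06 (SE 0.115, adjusted p 0.851) turned to 0.05 with cyclic loess scaling, to 0.07 without DMSO 1 and to 0.03 without PR-957 1. Among genes with an H3K4me1 interval, MPO stood at percentile 93.4 with 3.62 CPM per kb in DMSO, against percentile 26.3 with 2.50 CPM per kb for H3K27ac. The nearest H3K4me3 interval lay 2313 bp from an MPO start site, just outside the window.

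Neutrophil elastase (ELANE), proteinase 3 (PRTN3) and azurocidin (AZU1), a protease relative without enzymatic activity, come from 1 cluster on chromosome 19. None had an interval in its window, so no level can be given for them in any of the 4 marks. The nearest intervals to AZU1 lay 3339 bp away for H3K4me3, 3511 bp for H3K27ac and 3771 bp for H3K4me1. The same loci were the nearest to PRTN3 for these marks, at 19241, 19413 and 19673 bp. They sit at the start of the neighbouring gene PLPPR3. For ELANE the nearest lay 29256 bp away for H3K4me3, 28825 bp for H3K27ac and 29688 bp for H3K4me1, so ELANE had no distal interval within 20 kb either. H3K27me3 was no closer than 57318 bp to AZU1, 62334 bp to ELANE and 71296 bp to PRTN3.

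Cathepsin G, a chymotrypsin-like protease of the same granule, is encoded by CTSG on chromosome 14, away from that cluster. Its H3K4me3 interval, chr14:24573236-24578201, spans the start site and the promoter bases printed above, and held 692 and 592 counts with DMSO and 444 and 380 with PR-957. Scaled for depth these were 15.5 and 14.2 CPM against 14.6 and 12.5, and the groups overlapped. The log2 fold change was -0.13 (SE 0.0981, adjusted p 0.839), and it was -0.24 without PR-957 1 and -0.03 without PR-957 2. In H3K27ac, chr14:24573135-24577289, CTSG had 15.9 and 14.7 CPM with DMSO and 13.9 and 14.1 with PR-957, from 210, 146, 138 and 200 counts. The groups did not overlap, but the gap was narrow, with a log2 fold change of -0.13 (SE 0.164, 95% confidence interval -0.45 to 0.19, adjusted p 0.913). It ranged from -0.18 without DMSO 2 to -0.07 without DMSO 1. The H3K4me1 libraries, at chr14:24573438-24578394, held 8.84 and 9.41 CPM with DMSO and 9.5 and 9.18 with PR-957. These overlapped, with a log2 fold change of 0.03 (SE 0.149, adjusted p 0.940) that became -0.01 without DMSO 1 and 0.08 when scaled by library size alone. CTSG had 2.99 CPM per kb of H3K4me3 in DMSO at this interval (percentile 25.9 of genes with an H3K4me3 interval), and no distal interval of any of the 4 marks within 20 kb.

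**Figure D3:**
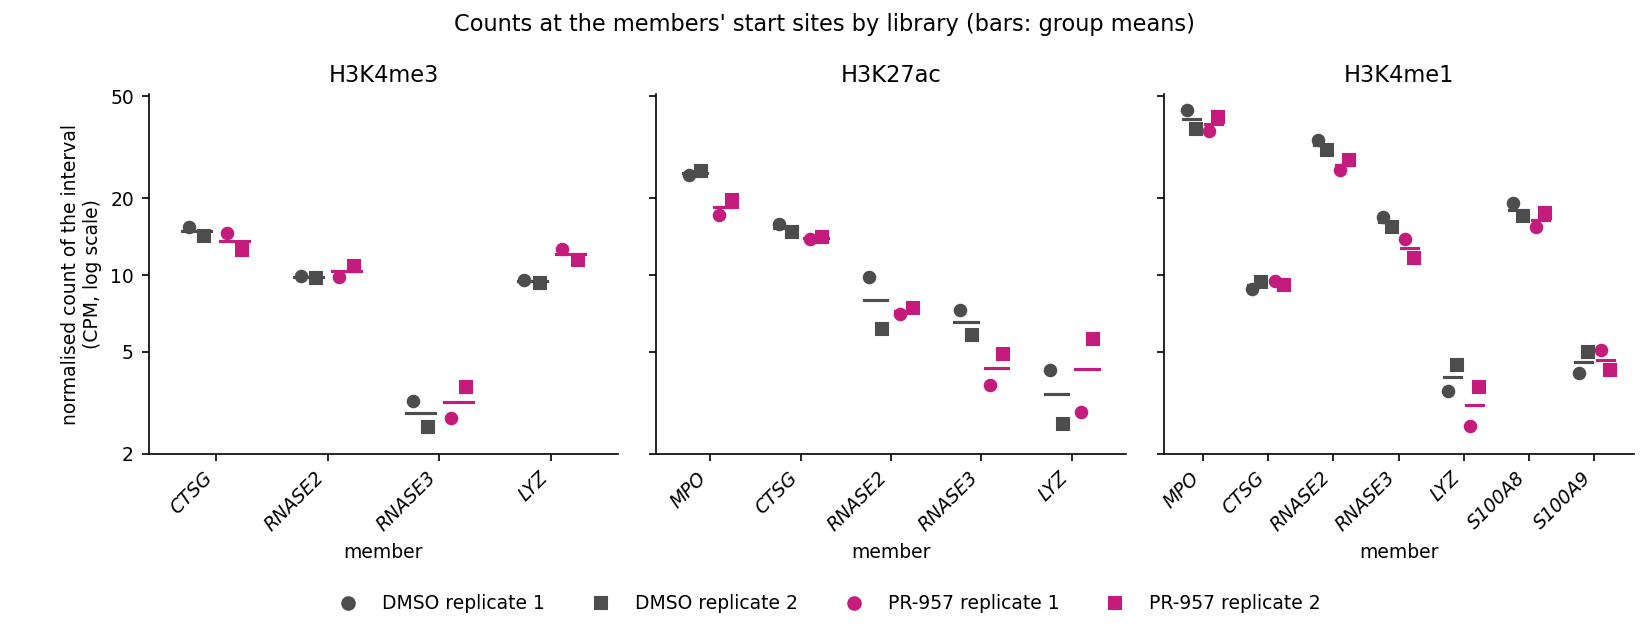
CPM in every library at the promoter interval of each gene, by mark, on a log axis, with DMSO and PR-957 libraries as separate points and a bar at each group mean. PR-957 points lie below both DMSO points for MPO, CTSG and RNASE3 in H3K27ac and for RNASE2 and RNASE3 in H3K4me1, and above them for LYZ in H3K4me3.

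RNASE2 (eosinophil-derived neurotoxin) and RNASE3 (eosinophil cationic protein) encode secretory ribonucleases from neighbouring loci on chromosome 14. RNASE3 H3K27ac, at chr14:20891012-20892699, held 96 and 58 counts with DMSO and 37 and 70 with PR-957, or 7.27 and 5.85 CPM against 3.72 and 4.93. Both PR-957 libraries were the low ones, with group means of 6.56 ± 1.00 and 4.32 ± 0.850 CPM (SD, n = 2). The log2 fold change of -0.59 (SE 0.256, 95% confidence interval -1.09 to -0.09), a fold of 0.664, had an adjusted p of 0.493, and it ranged from -0.82 to -0.41 when 1 library at a time was left out. RNASE3 H3K4me1, at chr14:20887828-20897028, held 496, 370, 215 and 268 counts in DMSO 1, DMSO 2, PR-957 1 and PR-957 2, which scaled to 16.8, 15.5, 13.8 and 11.7 CPM. Again the groups did not overlap, and the log2 fold change was -0.36 (SE 0.127, 95% confidence interval -0.61 to -0.11) with an adjusted p of 0.111, the smallest among the 16 promoter intervals. Without PR-957 2 it was -0.23 with an adjusted p of 0.529 in edgeR, and without PR-957 1 it was -0.47. RNASE2 H3K4me1, at chr14:20950254-20960599, held 996, 738, 403 and 650 counts in the same order, or 33.7, 30.9, 25.9 and 28.3 CPM. The PR-957 libraries were again both low, with a log2 fold change of -0.25 (SE 0.115, 95% confidence interval -0.48 to -0.03), an adjusted p of 0.238 and a range of -0.32 to -0.18 when 1 library at a time was left out. With cyclic loess scaling it was -0.16 (adjusted p 0.390 in edgeR). RNASE2 H3K27ac, at chr14:20954254-20957458, had 9.84 and 6.15 CPM with DMSO and 7.04 and 7.46 with PR-957. DMSO 1 stood alone on the high side and the groups overlapped, and the log2 fold change of -0.16 (SE 0.217, adjusted p 0.925) turned to 0.24 without that library.

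At the H3K4me3 promoter intervals of the ribonuclease genes the groups were not separate. RNASE2, at chr14:20953437-20957460, held 442, 404, 300 and 330 counts in DMSO 1, DMSO 2, PR-957 1 and PR-957 2, or 9.89, 9.71, 9.85 and 10.9 CPM. RNASE3, at chr14:20889969-20892485, held 144, 106, 84 and 110 counts, or 3.22, 2.55, 2.76 and 3.63 CPM. In both genes the groups overlapped and PR-957 2 was the highest library. In the other 3 H3K4me3 intervals at RNASE2, which are narrower, both PR-957 libraries lay above both DMSO libraries. The 4 intervals overlap and share reads, and gave log2 fold changes of 0.08 to 0.13. The log2 fold changes were 0.08 (SE 0.115, adjusted p 0.934) for RNASE2 and 0.15 (SE 0.246, adjusted p 0.947) for RNASE3, and the latter became -0.01 without DMSO 2 and -0.07 without PR-957 2. RNASE2 ranged from 0.01 without PR-957 2 to 0.15 without PR-957 1. RNASE3 had the lowest H3K4me3 level of the 4 genes with this mark, 1.15 CPM per kb in DMSO (percentile 8.05), while its H3K27ac stood at 3.89 CPM per kb (percentile 48.3). Levels per kb move with the width of the interval taken, and across the overlapping intervals the order of CTSG and LYZ in H3K4me3 and of RNASE3 and CTSG in H3K27ac was not fixed. RNASE2 had 2.44 CPM per kb of H3K4me3, 2.50 of H3K27ac and 3.12 of H3K4me1, the last at percentile 89.8.

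Lysozyme, which cleaves bacterial cell walls, is encoded by LYZ. In each of its 4 H3K4me3 intervals both PR-957 libraries lay above both DMSO libraries. These intervals overlap and share most reads, so they are not 4 separate observations. The LYZ promoter interval, chr12:69347241-69351244, held 426 and 389 counts with DMSO and 386 and 346 with PR-957, although the PR-957 libraries were the shallower ones. Scaled for depth these were 9.53 and 9.35 CPM against 12.7 and 11.4, so both PR-957 libraries were high and the groups did not overlap. The means were 9.44 ± 0.131 and 12 ± 0.880 CPM (SD, n = 2), a fold of 1.28, and the log2 fold change was 0.35 (SE 0.112, 95% confidence interval 0.13 to 0.57) with an adjusted p of 0.209. It stayed between 0.28 and 0.42 when 1 library at a time was left out, and the 4 overlapping H3K4me3 intervals at LYZ gave 0.33 to 0.36. The other LYZ marks were sparse. H3K27ac, at chr12:69348254-69349553, held 56, 26, 29 and 80 counts in DMSO 1, DMSO 2, PR-957 1 and PR-957 2, or 4.24, 2.62, 2.92 and 5.63 CPM. Replicates differed more than the groups did, and the log2 fold change of 0.33 (SE 0.310, adjusted p 0.871) became -0.25 without PR-957 2. H3K4me1, at chr12:69345746-69349609, held 104, 106, 40 and 84 counts, or 3.52, 4.43, 2.57 and 3.65 CPM. PR-957 1 was low and PR-957 2 lay between the DMSO libraries, with a log2 fold change of -0.32 (SE 0.237, adjusted p 0.522) that was -0.11 without PR-957 1 and -0.62 without PR-957 2.

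S100A8 and S100A9 encode the subunits of calprotectin, which binds calcium and withholds metal ions from microbes. At S100A8, the H3K4me1 interval chr1:153384797-153392028 held 564, 406, 240 and 402 counts in DMSO 1, DMSO 2, PR-957 1 and PR-957 2, or 19.1, 17, 15.4 and 17.5 CPM. The groups overlapped because PR-957 2 lay above DMSO 2, and the log2 fold change was -0.13 (SE 0.121, adjusted p 0.634), moving to -0.04 without DMSO 1, -0.05 without PR-957 1, -0.23 without PR-957 2, -0.07 with cyclic loess scaling and -0.08 when scaled by library size alone. In the other 3 H3K4me1 intervals at S100A8 both PR-957 libraries lay below both DMSO libraries. The 4 intervals overlap and share reads, and gave log2 fold changes of -0.31 to -0.13, with a lowest adjusted p of 0.262 in edgeR. At S100A9, chr1:153355711-153359271 held 122, 120, 79 and 98 counts, or 4.13, 5.02, 5.07 and 4.26 CPM. DMSO 2 and PR-957 1 were the high libraries, so each group held a high and a low value, and the log2 fold change was 0.02 (SE 0.207, adjusted p 0.972). It became -0.12 without DMSO 1, -0.10 without PR-957 1 and 0.07 when scaled by library size alone. The sign also moved with the interval taken, from -0.02 to 0.22 over the 5 H3K4me1 intervals at S100A9, in each of which the groups overlapped. S100A8 had more H3K4me1 per length than S100A9, 2.49 against 1.29 CPM per kb in DMSO, at percentiles 81.9 and 48.8. No H3K4me3 interval lay within 142968 bp of S100A8 or 176187 bp of S100A9. H3K27ac came as near as 4900 bp to S100A8 and 7785 bp to S100A9, the latter in the TSS window of the neighbouring gene PGLYRP4. H3K27me3 came as near as 2988 and 3025 bp, the closest approach of the Polycomb mark to any of the 10 genes. At the other genes with promoter marks, H3K27me3 lay 110469 bp away from RNASE2, 113292 bp from MPO, 172731 bp from CTSG, 174571 bp from RNASE3 and 387717 bp from LYZ.

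With those described, the promoter windows held 16 intervals for H3K4me3, 14 for H3K27ac and 27 for H3K4me1, and all but 1 of them overlapped the promoter interval of their gene. The exception was chr1:153359555-153361741, an H3K4me1 interval 1701 bp from the S100A9 start site. edgeR called 0 of the window intervals, beside 0.226%, 0.238% and 1.94% of all intervals of these marks. An unadjusted p under 0.05 was found in 4, 6 and 10, beside 7.52%, 8.01% and 16.2% of all intervals. The lowest adjusted p were 0.190 at LYZ for H3K4me3, 0.163 at MPO for H3K27ac and 0.111 at RNASE3 for H3K4me1. Log2 fold changes were below 0 in 4 of the 16 H3K4me3 intervals, 13 of the 14 H3K27ac intervals and 20 of the 27 H3K4me1 intervals. Over all intervals the same held for 29812 of 59229, 37254 of 74510 and 54236 of 108158. These are not independent counts of change, since intervals of 1 gene share reads.

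Distal intervals within 20 kb numbered 26 for H3K4me3, 36 for H3K27ac, 48 for H3K4me1 and 5 for H3K27me3, and formed 9, 14, 14 and 4 separate loci. Of these intervals, 10, 18, 9 and 1 lay in the TSS window of another gene. edgeR called 0 in each mark, with 0, 7, 9 and 0 at an unadjusted p under 0.05, and DESeq2 called 0, with no adjusted p for 3, 34, 0 and 5 of them. Over all intervals DESeq2 gave none for 4594 of 59229, 70784 of 74510, 2097 of 108158 and 25282 of 31806. With edgeR, the shares of distal intervals at an unadjusted p under 0.05 were 0%, 19.4%, 18.8% and 0%, beside 7.52%, 8.01%, 16.2% and 15.6% of all intervals. Most of these intervals overlap one another, so the shares do not count separate loci. The H3K27ac ones lay upstream of MPO, beside RNASE2 and at PGLYRP4 near S100A9, and those at MPO overlapped its promoter interval. The H3K4me1 ones lay on either side of RNASE3 and at S100A12. The smallest p for H3K27ac belonged to chr14:20958054-20960531, 2567 bp from the RNASE2 start site, with 110, 64, 50 and 58 counts or 8.33, 6.45, 5.03 and 4.08 CPM in DMSO 1, DMSO 2, PR-957 1 and PR-957 2. Both PR-957 libraries were low, as at the promoter interval of RNASE3, and the log2 fold change was -0.72 (SE 0.247, adjusted p 0.293). For H3K4me1 it belonged to chr14:20903684-20907350, 12299 bp from the RNASE3 start site, with 27.4, 25.7, 21.0 and 21.5 CPM from 810, 614, 327 and 495 counts. The PR-957 libraries were low here too, with a log2 fold change of -0.32 (SE 0.116, adjusted p 0.116). The level there, 7.24 CPM per kb in DMSO, exceeded the 1.75 CPM per kb of the RNASE3 promoter interval. The H3K4me3 interval with the smallest p, chr19:812676-815547, lay 9550 bp from AZU1 in the window of PLPPR3 and held few counts, 34, 35, 33 and 48. The PR-957 libraries were both above the DMSO libraries in CPM, with a log2 fold change of 0.73 (SE 0.434, adjusted p 0.752). The H3K27me3 interval with the smallest p, chr1:153373701-153376346, sat at S100A12 between S100A8 and S100A9, with 4.02 and 4.05 CPM in DMSO and 1.85 and 3.25 in PR-957. The PR-957 libraries were both low, with a log2 fold change of -0.64 (SE 0.352, adjusted p 0.382). An H3K4me1 interval within it, chr1:153374277-153376155, named here after its values were seen, had 1.46 and 1.88 CPM with DMSO and 3.14 and 2.78 with PR-957, from 43, 45, 49 and 64 counts. There both PR-957 libraries were high, and the log2 fold change of 0.83 (SE 0.317) missed the threshold with an adjusted p of 0.144. Upstream of MPO, the H3K27ac interval chr17:58283361-58286364, named here after its values were seen, had 13.3 and 13.1 CPM with DMSO and 9.16 and 9.5 with PR-957. It shares reads with the MPO promoter interval and had a log2 fold change of -0.50 (SE 0.185, adjusted p 0.360). In the other direction, the H3K27ac interval chr1:153347449-153350069 lay near S100A9 but in the TSS window of PGLYRP4. It was also named after its values were seen and held few counts. These were 5 and 18 with DMSO and 23 and 36 with PR-957. Both PR-957 libraries were high in CPM, with a log2 fold change of 1.22 (SE 0.577, adjusted p 0.563 in edgeR).

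Other granule genes, a list of 26 that includes BPI, CAMP, LTF, MMP9, CST7 and S100A12, had a promoter interval in 6 cases for H3K4me3, 7 for H3K27ac, 12 for H3K4me1 and 3 for H3K27me3. edgeR called 0 in each mark, beside 0.226%, 0.238%, 1.94% and 5.92% of all intervals. In this list 2, 2, 6 and 0 had an unadjusted p under 0.05 (against 7.52%, 8.01%, 16.2% and 15.6% of all intervals). DESeq2 called 0, with no adjusted p for 1, 6, 0 and 3 of them. Over all intervals it gave none for 4594 of 59229, 70784 of 74510, 2097 of 108158 and 25282 of 31806. The median log2 fold changes of the list were 0.06, -0.06, -0.20 and -0.17. Both PR-957 libraries lay below both DMSO libraries in 1 of 6, 1 of 7, 7 of 12 and 2 of 3, beside 18.4%, 18.8%, 23.2% and 22.5% of all intervals. They lay above in 2, 2, 1 and 0, beside 18.1%, 18.1%, 23.5% and 21.6% of all intervals. CST7, which encodes cystatin F, an inhibitor of granule cathepsins, had the highest H3K4me1 of the list's promoter intervals at 5.65 CPM per kb in DMSO. It held 1481 and 1178 counts with DMSO and 570 and 938 with PR-957, or 50.2 and 49.3 CPM against 36.6 and 40.8. Both PR-957 libraries were low, and the log2 fold change of -0.36 (SE 0.116) had an adjusted p of 0.0706 in edgeR. Scaled by library size alone it was -0.31 with an adjusted p of 0.0496, and no other alternative called CST7. CAMP, the cathelicidin gene, had the smallest p of the list for H3K27ac with a log2 fold change of -0.88 (adjusted p 0.356). Its values were 6.66 and 2.92 CPM with DMSO and 2.72 and 2.60 with PR-957, so DMSO 1 stood apart from the other libraries. BPI, encoding a protein that binds bacterial endotoxin, had it for H3K4me3 with -0.62 (adjusted p 0.553). Its values were 3.45 and 2.83 CPM with DMSO and 2.82 and 1.25 with PR-957, so PR-957 2 alone stood well below the others. For H3K27me3 the list had intervals at S100A12, LTF and PGLYRP1, with log2 fold changes of -0.64, -0.17 and 0.31 and adjusted p of 0.382, 0.773 and 0.815.

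The regulators comprised 5 genes that process or inhibit granule proteases and 6 transcription factors. Of the protease regulators CTSC, SERPINB1, SERPINA1, SLPI and CST3, 3 had H3K4me3, 3 H3K27ac, 4 H3K4me1 and 0 H3K27me3. Of the factors CEBPA, CEBPE, SPI1, MYB, RUNX1 and GFI1, all 6 had H3K4me3, H3K27ac and H3K4me1 and 0 had H3K27me3. edgeR called 0 of 9 for H3K4me3, 0 of 9 for H3K27ac and 1 of 10 for H3K4me1, beside 0.226%, 0.238% and 1.94% of all intervals called. Of these promoter intervals 3, 1 and 5 had an unadjusted p under 0.05 (against 7.52%, 8.01% and 16.2% of all intervals). DESeq2 called 0 in each, with no adjusted p for 0, 4 and 0 of them. Over all intervals it gave none for 4594 of 59229, 70784 of 74510 and 2097 of 108158. The called interval was at CTSC, whose product cathepsin C activates the granule serine proteases. It lies at chr11:88352483-88358137, 858 bp from an upstream annotated start site, and held 113 and 81 counts with DMSO and 97 and 132 with PR-957, or 3.83 and 3.39 CPM against 6.23 and 5.74. Both PR-957 libraries were high and H3K4me1 rose by 0.72 on the log2 scale (SE 0.205, adjusted p 0.0342) at a low level of 0.638 CPM per kb in DMSO. The call was lost without any of the 4 libraries, at adjusted p of 0.143 without DMSO 1, 0.207 without DMSO 2, 0.214 without PR-957 1 and 0.0793 without PR-957 2, and in DESeq2 at 0.519. The log2 fold changes in these fits were 0.82, 0.64, 0.66 and 0.78, and 0.72 in DESeq2. At the other CTSC start site, chr11:88334798-88339480 had an H3K4me3 log2 fold change of -0.16 (adjusted p 0.625).

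Among the factors, the median log2 fold change was -0.01 for H3K4me3, -0.08 for H3K27ac and -0.28 for H3K4me1, and for the protease regulators it was 0.10, -0.08 and -0.03. Both PR-957 libraries lay below both DMSO libraries at 1, 1 and 5 of the 6 factors and at 1 of 3, 1 of 3 and 0 of 4 protease regulators, beside 18.4%, 18.8% and 23.2% of all intervals. They lay above at 1, 0 and 0 factors and at 2, 0 and 1 protease regulators, beside 18.1%, 18.1% and 23.5% of all intervals. SPI1, which encodes the myeloid factor PU.1, held 3074 and 2797 H3K4me3 counts with DMSO and 1630 and 1918 with PR-957, or 68.8 and 67.2 CPM against 53.5 and 63.3. Both PR-957 libraries were low, PR-957 1 more so, and the log2 fold change was -0.22 (SE 0.0697, adjusted p 0.210). Without PR-957 2 it was -0.35 with an adjusted p of 0.00927, so the call turns on that library. GFI1, a repressor needed for neutrophil development, had 5.01 and 4.60 CPM of H3K4me1 with DMSO and 2.18 and 4.57 with PR-957. PR-957 1 alone was far below the rest, and the log2 fold change of -0.46 (adjusted p 0.265) was -1.14 (adjusted p 0.0281) without PR-957 2. MYB, a factor of immature myeloid cells, had the smallest p of the regulators for H3K27ac, with a log2 fold change of -0.17 (adjusted p 0.429). The highest H3K4me3 levels at promoter intervals on both lists were those of MYB, SPI1 and CEBPA at 12.5, 10.4 and 7.91 CPM per kb in DMSO, above the 2.99 CPM per kb of CTSG. For H3K27ac they were MYB, GFI1 and RUNX1 at 17.7, 13.4 and 12.2 CPM per kb, against 3.89 for RNASE3. For H3K4me1 they were CST7, CEBPE and CEBPA at 5.65, 4.37 and 3.84 CPM per kb, beside 3.62 for MPO. CHI3L1 also stood at 3.84 CPM per kb, so it and CEBPA were level at these digits. This order too depends on the interval taken, since the narrower H3K4me1 intervals at S100A8 reached 4.68 CPM per kb, against 2.49 at its promoter interval.

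**Figure D4:**
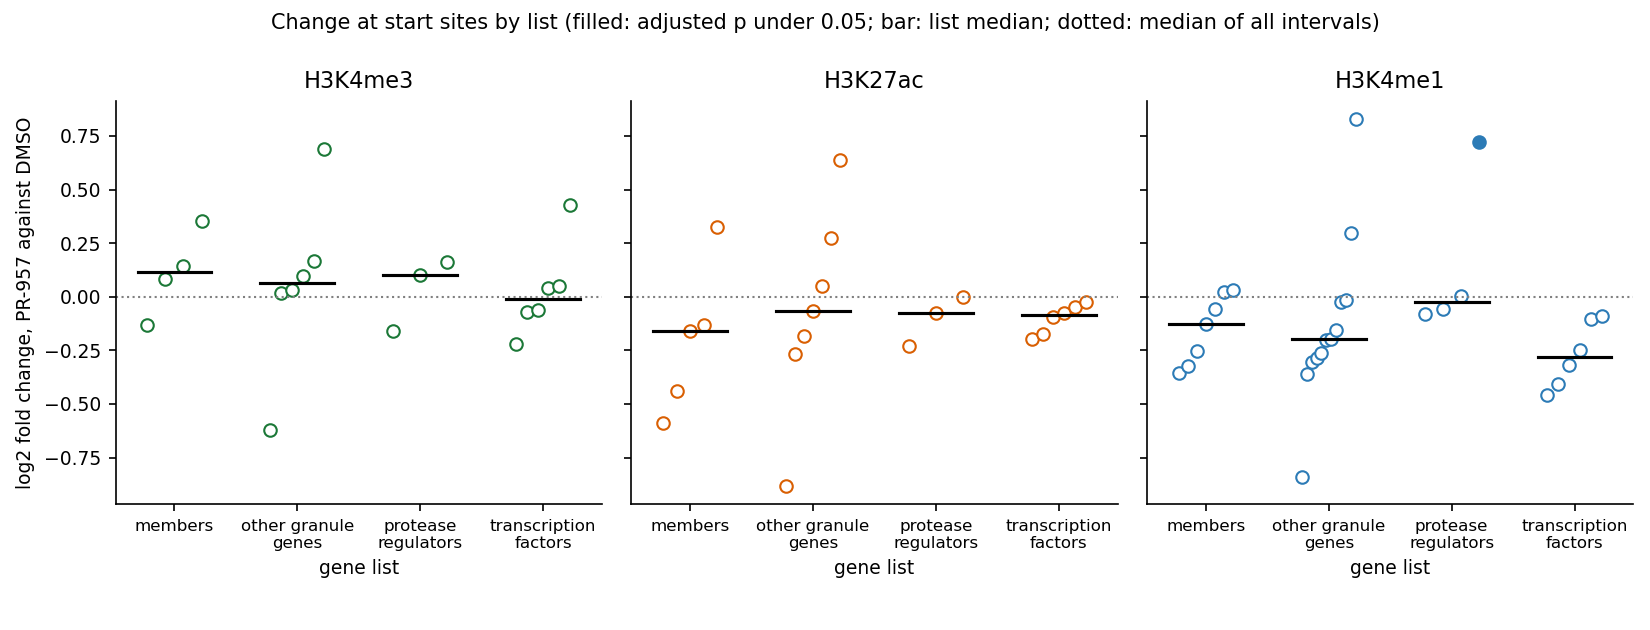
Log2 fold change of PR-957 over DMSO at the promoter intervals of the 10 genes, of the other granule genes and of both kinds of regulators for H3K4me3, H3K27ac and H3K4me1, with 1 point per gene, a bar at each list's median and a dotted line at the median of all intervals. The filled point is CTSC in H3K4me1 at 0.72, which had an adjusted p under 0.05, and all other points are open.

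Genes with the most similar pattern were sought by the Euclidean distance over log2(CPM per kb + 1) in DMSO across the 4 marks, with genes that share an interval left out. Nearest to MPO were C1orf167 (distance 0.0922), PDE6A (0.107) and YJEFN3 (0.110), each with H3K27ac and H3K4me1 and without H3K4me3 or H3K27me3. Nearest to LYZ were STAC3 (0.0650), NUDT17 (0.0702) and RNF227 (0.0963), each with H3K4me3, H3K27ac and H3K4me1 near the LYZ levels of 2.36, 2.64 and 1.03 CPM per kb.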

How the data were processed

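The authors deposited raw counts per listed interval for each mark, without normalization, with a separate list of intervals per mark. Per the study's methods, paired-end reads were aligned to hg38 with Bowtie2 and peaks were called with MACS2 or SEACR. The submitters' processing notes list Trimmomatic 0.39, Bowtie2 2.2.5, Picard 2.27.1, SAMtools 1.7, SEACR 1.3 and deepTools 3.5.1. The counter, the handling of duplicates and the way the lists were joined over libraries are not given in the sources used here. Overlapping intervals share reads, so neighbouring tests are not independent and library totals depend on the list.

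Intervals were kept by edgeR's filterByExpr with a minimum count of 10, scaled by TMM and tested for PR-957 over DMSO, mark by mark, with edgeR 4.0.16's quasi-likelihood test in R 4.3.3, with Benjamini-Hochberg adjustment at 0.05. The standard error is the absolute log2 fold change divided by the square root of F. CPM used TMM-scaled library sizes. The pipeline was tested on simulated data. Start sites came from GENCODE release 44. Genes are named where they belong to the 10, passed the threshold, had the smallest p-value of a list or of the distal intervals in a mark, or were among the 3 highest in DMSO CPM per kb. Promoter sequences came from RefSeq (GRCh38.p14) and were aligned in pairs with Biopython 1.88. DESeq2 1.42.0, other scalings, filters and windows, a replicate term and leaving out each library were tried as alternatives. The members and lists were chosen with earlier results of these data known.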

Additional observations from a re-analysis of the deposited data

How the results depend on the processing

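The 16 promoter log2 fold changes of the members were followed over 175 alternative values, of which 10 changed sign and 0 passed the threshold, the lowest adjusted p being 0.11. With 1 library left out, those that changed sign ranged from -0.068 to 0.33 for RNASE3 H3K4me3 (below 0 without DMSO 2 or PR-957 2), -0.44 to 0.24 for RNASE2 H3K27ac (above 0 without DMSO 1), -0.25 to 0.74 for LYZ H3K27ac (below 0 without PR-957 2), -0.17 to 0.071 for MPO H3K4me1 (above 0 without DMSO 1 or PR-957 1), -0.012 to 0.077 for CTSG H3K4me1 (below 0 without DMSO 1) and -0.12 to 0.16 for S100A9 H3K4me1 (below 0 without DMSO 1 or PR-957 1). MPO H3K4me1 was 0.054 with loess offsets. The cause was not tested. No alternative called a member promoter or a distal interval. Windows of 5 kb reached 6 members for H3K4me3 (MPO and AZU1 added to 4), 7 for H3K27ac (AZU1 and S100A8 added to 5), 8 for H3K4me1 (AZU1 added to 7) and 2 for H3K27me3 (S100A8 and S100A9), with 0 called.

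Counts of called intervals moved with the tool and the libraries. DESeq2 called 34 for H3K4me3, 85 for H3K27ac, 26 for H3K4me1 and 1278 for H3K27me3, against 134, 177, 2099 and 1882 with edgeR. DESeq2 gave no adjusted p for 70784 of 74510 H3K27ac intervals and 25282 of 31806 H3K27me3 intervals. DESeq2's filtering was tuned to the 0.05 threshold after results were seen. At its default level, an alternative also chosen after seeing the data, it called 25, 85, 4 and 1259, with no adjusted p for CTSC H3K4me1. Loess offsets gave 107 for H3K27ac. Leaving out 1 library gave 28 to 170 for H3K4me3, 20 to 89 for H3K27ac, 322 to 1756 for H3K4me1 and 1168 to 1517 for H3K27me3. Regulators called ranged from 0 to 1 for H3K4me3 (SPI1 without PR-957 2) and from 0 to 1 for H3K4me1. The 1 called there by edgeR, CTSC, was lost without any of the 4 libraries and in DESeq2, which called 0, and GFI1 was called without PR-957 2. Library size alone called 1 other granule gene in H3K4me1, CST7. It also shifted the H3K27me3 median log2 fold change by 0.16 and the split of calls from 262 higher and 1620 lower to 1521 and 698, while loess gave 778 and 950. For H3K4me1 the split went from 1341 higher and 758 lower to 1902 and 465, and with DESeq2 to 21 and 5. For H3K27ac it went from 48 and 129 to 14 and 71 with DESeq2.

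Same-numbered libraries of the 2 groups share a number and no stated source. The correlation of their deviations was 0.152, -0.005, -0.001 and -0.009 for H3K4me3, H3K27ac, H3K4me1 and H3K27me3, and the fit with a replicate block called 161, 195, 1904 and 1324 intervals, 0 of them member promoters. Precision was limited by 2 libraries a group and, at the H3K27ac intervals of LYZ and RNASE3, by 26 to 96 counts per library. With 1 library left out, the lone library of a group is assumed to vary like the others.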
